A study of Homo sapiens with 4 samples.

Results

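The genes of the proteasome were followed in BLaER1 cells after knockdown of HAL7, a long non-coding RNA. The set comprised 39 genes chosen by name: subunits of the 20S core, the 3 immune catalytic subunits, subunits of the 19S regulatory particle, the activators, and the maturation factor POMP. Of these, 38 were matched by Ensembl ID to the 43450 genes of the expression table, and all 38 were among the 12935 genes tested. PSMB3 was matched to no row and was not analysed here. The matched genes were 13 constitutive 20S genes, 3 immune catalytic genes, 17 genes of the 19S particle, 4 activator genes and POMP.

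The proteasome degrades proteins tagged with ubiquitin. Its 20S core is a barrel with outer rings of alpha subunits (PSMA genes), which gate the entrance, and inner rings of beta subunits (PSMB genes), of which PSMB5, PSMB6 and PSMB7 carry the cutting sites. In lymphoid cells and after interferon exposure, the immune subunits PSMB8, PSMB9 and PSMB10 take the places of these during assembly and favour peptides suited to MHC class I. The 19S particle caps the core: its ATPases (PSMC genes) unfold substrates, and its non-ATPase subunits (PSMD genes) include the ubiquitin receptors and a deubiquitinase. PSME activators dock on the core at the site that the 19S particle uses.

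RNA came from 2 libraries of BLaER1 cells with HAL7 knockdown and 2 libraries of BLaER1 control cells. BLaER1 is a human B cell leukaemia line with an inducible C/EBPα transgene, known for its conversion into macrophage-like cells. The knockdown used 3 LNA GapmeRs, antisense oligonucleotides that direct RNase H to a bound RNA, placed in the culture medium without transfection. The sources used here state neither what the control cells received, nor the time of exposure, nor whether the GapmeRs were pooled. They also do not say whether replicates were separate cultures, so the p-values rest on the spread between libraries, and that spread may be technical. HAL7 itself stood at 0.475 and 0.347 FPKM in knockdown libraries, against 0.726 and 0.613 FPKM in control libraries, where FPKM counts fragments per kilobase of a transcript, scaled by library depth. Both knockdown values lay below both control values, yet the test was not passed (log2 change -0.24, SE 0.11; limma adjusted p = 0.32).

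The steps between low values gave depths of 107 and 96.1 M fragments in knockdown replicates 0 and 1, and of 60.7 and 126 M in control replicates 0 and 1. The lowest density of fragments for any proteasome gene was then 709 per kilobase of transcript, for PSMD12 in control replicate 0. A count of 709 fragments has a counting error of 3.75%. The whole count of each gene depends on transcript length and was not rebuilt. All 9 pre-B and B cell markers were tested, and their summed level was 3582 and 3651 FPKM in knockdown libraries, against 3678 and 3655 FPKM in control libraries. Both knockdown sums lay below both control sums, but the nearest, 3651 and 3655 FPKM, almost met. DNTT and IGLL1 were the most abundant of the 9, and both overlapped between groups. CD79A, CD79B, EBF1 and PAX5 were lower and MME higher in both knockdown libraries, and 0 of the 9 passed the adjusted threshold. Of 9 macrophage markers, 8 were matched and 2 were tested, CSF1R and CD68, while S100A8 and S100A9 were listed at 0 in all 4 libraries. The macrophage sum was 36.6 and 40.3 FPKM in knockdown libraries, against 39.45 and 38.5 FPKM in control libraries. It was mostly CSF1R, and CD68 had 2.43 and 1.995 FPKM in knockdown libraries, against 2.73 and 3.21 FPKM in control libraries, lower in both knockdown libraries (log2 change -0.31, SE 0.10; limma adjusted p = 0.24). Of 7 T and NK cell markers, 1 was tested (NKG7) and CD3D and CD3G were listed at 0 in all 4 libraries. That sum was 22.05 and 17.2 FPKM in knockdown libraries, against 27.6 and 27.2 FPKM in control libraries, also lower in both knockdown libraries. It was nearly all NKG7, with 21.9 and 17.2 FPKM in knockdown libraries, against 27.5 and 27.04 FPKM in control libraries. The sum is thus in effect the level of 1 gene and gives no measure of T or NK cells. The part of these markers in the results was not tested. Fewer cells with a marker RNA and less of that RNA per cell cannot be told apart in these bulk samples of a cell line.

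Proteasome genes were abundant in both groups, and 0 of the 38 passed the test of knockdown against control (limma on log2(FPKM + 1), Benjamini-Hochberg adjusted p of 0.05 over all genes tested). The lowest adjusted p in the set was 0.21. Over all genes tested 0.0309% were called, which is 4 of 12935. An unadjusted limma p under 0.05 was found in 5 of the 38 genes (13.2%), against 16.6% of all genes tested. Of these, PSMD12, POMP and PSMA6 were higher in knockdown libraries, 7.89% of the set against 7.25% of all genes, and PSMB9 and PSMB10 were lower, 5.26% against 9.35%. These shares were close to the background or below it, and so are not a result about the proteasome.

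The log2 change was positive in 24 of 38 genes (63.2%), against 46.8% of all genes tested. This count rested on knockdown replicate 1: without it 17 of 38 were positive (44.7%, against 45.4% of all genes), and without knockdown replicate 0 it was 30 of 38 (78.9% against 48.7%). Their median was 0.027, against -0.0090 over all genes. The knockdown and control libraries did not overlap in 19 of 38 genes (50%), against 50.3% of all genes. Among those, knockdown libraries were higher in 14 genes (36.8% against 22.5%) and lower in 5 (13.2% against 27.7%). All the changes were small, between -0.16 for PSMB10 and 0.26 for POMP on the log2 scale.

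**Figure D1:**
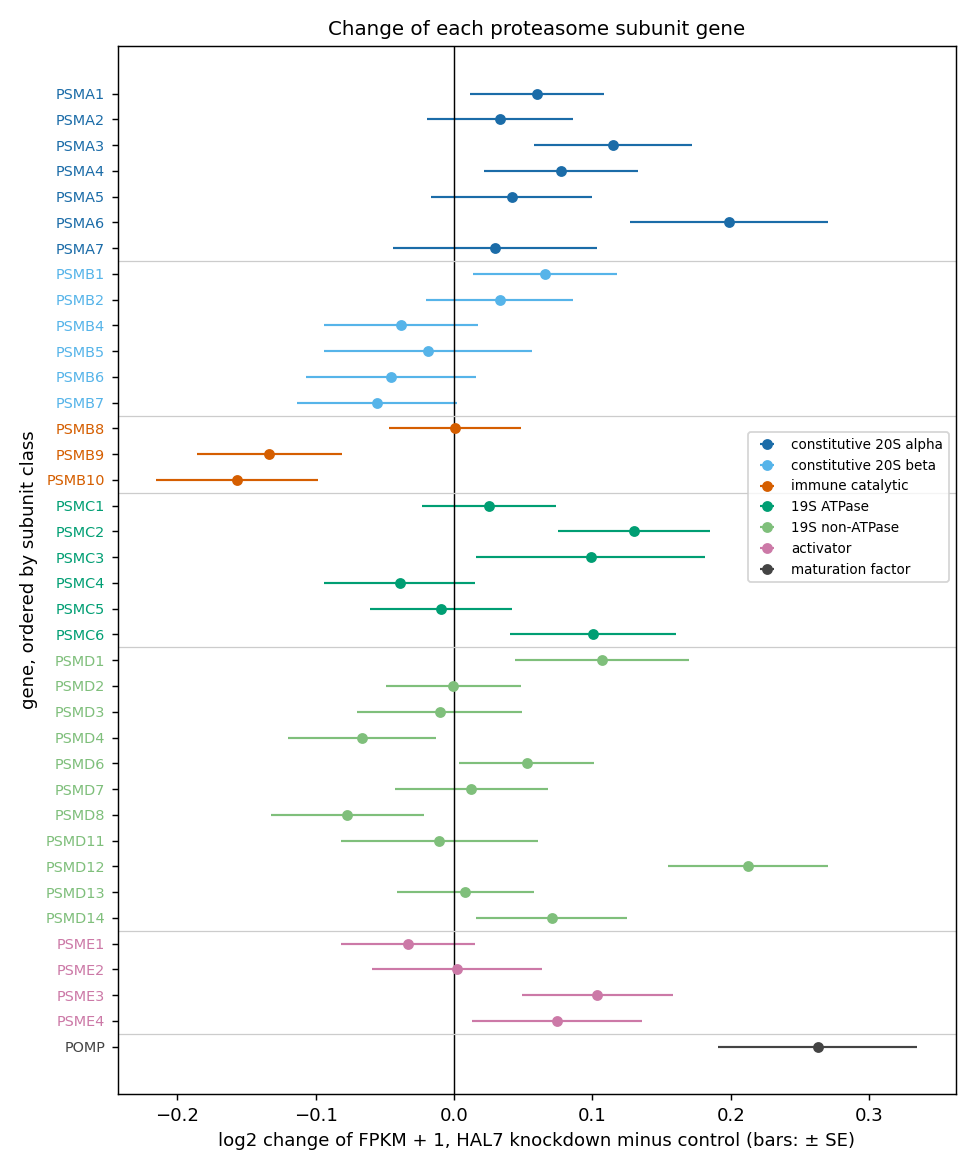
Log2 change of FPKM + 1 (x axis, HAL7 knockdown minus control) for each of the 38 matched genes (y axis), coloured by subunit class; points are limma estimates and bars ± 1 SE, from 2 libraries per group. POMP (0.26) and PSMD12 (0.21) lie farthest to the right and PSMB10 (-0.16) farthest to the left, and 0 of the 38 passed the adjusted threshold.

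The promoters of the 5 genes with an unadjusted p under 0.05 are shown because those genes lie at both ends of the range of changes. They are RefSeq windows on GRCh38.p14 from 250 bases before to 50 bases after an annotated start, 5′ to 3′ on the gene's strand, and for PSMA6 the first of 2 such windows. Capitals mark matches, on either strand, to the antioxidant response element core (TGACNNNGC), the interferon-stimulated response element core (GAAA, any 2 bases, GAAA), the interferon gamma-activated site (TTCNNNGAA) or the CCAAT box.
PSMD12, chr17:67366528-67366827, minus strand: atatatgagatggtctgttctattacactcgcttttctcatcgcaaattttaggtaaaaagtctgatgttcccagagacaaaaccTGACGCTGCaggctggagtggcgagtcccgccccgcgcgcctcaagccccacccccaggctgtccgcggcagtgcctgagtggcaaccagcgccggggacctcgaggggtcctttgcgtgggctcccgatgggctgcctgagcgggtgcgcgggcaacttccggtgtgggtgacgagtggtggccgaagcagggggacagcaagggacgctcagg
POMP, chr13:28658880-28659179, plus strand: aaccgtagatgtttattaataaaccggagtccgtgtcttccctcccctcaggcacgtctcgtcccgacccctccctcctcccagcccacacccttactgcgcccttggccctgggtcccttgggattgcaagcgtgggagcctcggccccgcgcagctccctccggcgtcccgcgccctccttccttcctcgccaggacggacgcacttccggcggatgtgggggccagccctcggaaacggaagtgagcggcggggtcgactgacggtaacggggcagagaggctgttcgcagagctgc
PSMA6, chr14:35292067-35292366, plus strand: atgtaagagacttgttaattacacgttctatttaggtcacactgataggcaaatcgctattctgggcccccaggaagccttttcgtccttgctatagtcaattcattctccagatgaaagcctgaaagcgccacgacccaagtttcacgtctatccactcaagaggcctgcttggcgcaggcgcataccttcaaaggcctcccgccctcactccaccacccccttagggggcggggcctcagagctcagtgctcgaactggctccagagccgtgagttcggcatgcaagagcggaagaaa
PSMB9, chr6:32853942-32854241, plus strand: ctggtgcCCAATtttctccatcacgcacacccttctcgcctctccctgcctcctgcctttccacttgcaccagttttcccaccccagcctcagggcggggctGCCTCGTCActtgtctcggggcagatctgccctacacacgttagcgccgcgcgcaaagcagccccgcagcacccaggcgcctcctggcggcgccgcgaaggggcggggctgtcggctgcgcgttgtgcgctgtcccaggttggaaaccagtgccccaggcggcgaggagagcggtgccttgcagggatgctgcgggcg
PSMB10, chr16:67936801-67937100, minus strand: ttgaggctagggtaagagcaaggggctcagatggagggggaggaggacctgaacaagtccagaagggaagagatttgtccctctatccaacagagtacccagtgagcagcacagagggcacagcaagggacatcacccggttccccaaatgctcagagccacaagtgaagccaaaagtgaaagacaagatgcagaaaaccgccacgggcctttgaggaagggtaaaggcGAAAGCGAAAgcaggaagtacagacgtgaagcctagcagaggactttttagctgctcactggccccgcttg

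The antioxidant response element is bound by NRF1 (NFE2L1), known to raise proteasome genes when proteasome activity is low. In these 5 windows it was matched once in PSMD12 and once, on the reverse strand, in PSMB9. The interferon-stimulated core was matched once in PSMB10, PSMB9 also held 1 CCAAT box, and POMP and PSMA6 held none of the 4 motifs in the window shown. Windows were found for 33 of the 38 genes, all but PSMA7, PSMB1, PSMB6, PSMB7 and PSMD4. The antioxidant core was present in 10 of 33 genes (30.3%), against 16.1% of all genes with a window, and 3 of those 10 were the activators PSME1, PSME2 and PSME4. The interferon-stimulated core was present in 6 of 33 (18.2%), against 4.38% of all genes, and those 6 were PSMB8, PSMB10, PSME1, PSME2, PSMA4 and PSMB4. The gamma-activated site was present in 7 of 33 (21.2% against 9.38%) and the CCAAT box in 16 of 33 (48.5% against 39.7%). A match describes letters in a window and is no evidence of binding.

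The alpha genes had the highest median level of any class, and all 7 had positive log2 changes, with a median of 0.060 and 0 past the adjusted threshold. Without knockdown replicate 1, 4 of 7 were positive, and with the GC trend described below removed 5 of 7. Over all genes tested 46.8% were positive, with 45.4% without knockdown replicate 1 and 50.6% with the GC trend removed. PSMA6 was the most abundant proteasome gene, with 317 and 362 FPKM in knockdown libraries, against 294 and 296 FPKM in control libraries. Its level averaged 339.5 ± 31.3 FPKM in knockdown libraries and 295 ± 0.961 FPKM in control libraries (SD, n = 2 each; log2 change 0.20, SE 0.071; limma adjusted p = 0.26). Both knockdown libraries lay above both controls, and knockdown replicate 1 was well above knockdown replicate 0. The log2 change of PSMA6 was 0.10 without knockdown replicate 1. The gene lies on the plus strand of chromosome 14, from 35278633 to 35317493 on GRCh38, and shares part of its span with another protein-coding gene on the same strand that averaged 2.81 FPKM over the 4 libraries.

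PSMA3 had 92.2 and 100 FPKM in knockdown libraries, against 88.6 and 88.6 FPKM in control libraries (log2 change 0.11, SE 0.057; limma adjusted p = 0.37). Its antisense neighbour PSMA3-AS1 had 29.4 and 27.5 FPKM in knockdown libraries, against 25.4 and 25.2 FPKM in control libraries. Strand-specific counting is not stated, and without strand the reads of such a pair cannot be told apart. PSMA4 had 119 and 124.5 FPKM in knockdown libraries, against 112 and 119 FPKM in control libraries (log2 change 0.077, SE 0.056; limma adjusted p = 0.52). PSMA1 had 154 and 158 FPKM in knockdown libraries, against 150.4 and 149 FPKM in control libraries (log2 change 0.060, SE 0.048; limma adjusted p = 0.56). In these 3 alpha genes the knockdown libraries lay above the controls by small margins, and for PSMA4 the nearest libraries almost met. PSMA2, PSMA5 and PSMA7 overlapped between groups, with log2 changes of 0.033, 0.042 and 0.030.

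Of the constitutive beta genes 2 of 6 were positive, with a median of -0.029 and 0 past the adjusted threshold. Without knockdown replicate 0, 5 of 6 were positive, without control replicate 0 it was 4 of 6, and with the GC trend described below removed 3 of 6. The difference between alpha and beta genes was not tested. PSMB1, a beta subunit without a cutting site, had 121 and 126 FPKM in knockdown libraries, against 116 and 119.7 FPKM in control libraries (log2 change 0.066, SE 0.052; limma adjusted p = 0.56). It was the only constitutive beta gene of the 6 whose groups did not overlap. PSMB4, also without a cutting site, was second to PSMA6 in level, with 211 and 224 FPKM in knockdown libraries, against 228 and 218.5 FPKM in control libraries. PSMB2 was the lowest of the constitutive 20S genes, with 29.6 and 30.8 FPKM in knockdown libraries, against 29.85 and 29.1 FPKM in control libraries. Both genes overlapped between groups.

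The constitutive catalytic genes overlapped between groups as well. PSMB5 averaged 52.4 ± 4.82 FPKM in knockdown libraries and 53.1 ± 2.54 FPKM in control libraries (SD, n = 2 each; log2 change -0.019, SE 0.075; limma adjusted p = 0.92). PSMB6 averaged 67.6 ± 3.39 FPKM in knockdown libraries and 69.8 ± 3.41 FPKM in control libraries (log2 change -0.045, SE 0.061; limma adjusted p = 0.75). PSMB7 averaged 137 ± 6.55 FPKM in knockdown libraries and 142 ± 5.098 FPKM in control libraries (log2 change -0.056, SE 0.058; limma adjusted p = 0.66). All 3 estimates were slightly negative, and each was smaller than its SE.

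**Figure D2:**
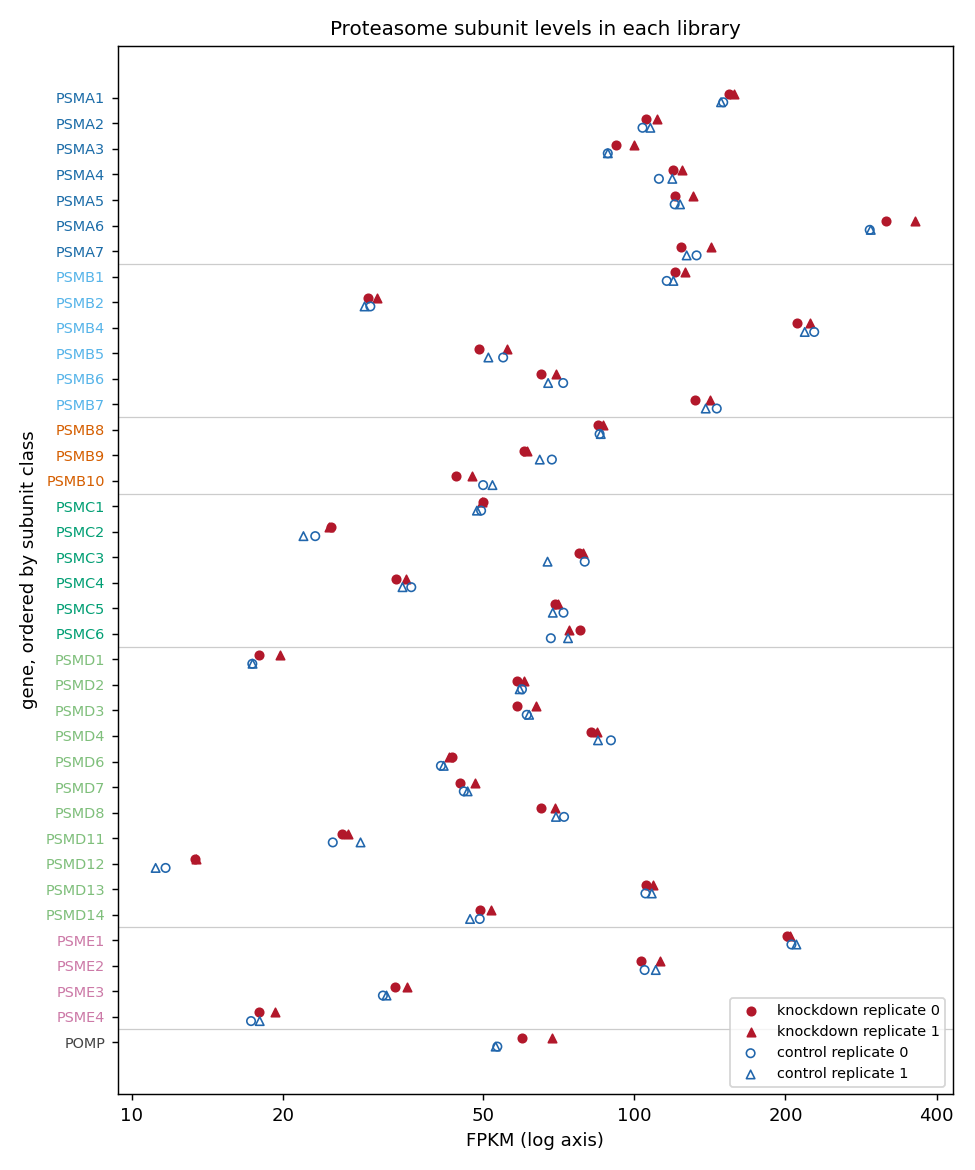
Level of each of the 38 matched genes (FPKM, log axis) in the 4 libraries; filled red symbols are knockdown, open blue symbols control, circles replicate 0 and triangles replicate 1. PSMA6 (294 to 362 FPKM) lies highest and PSMD12 (11.2 to 13.4 FPKM) lowest, and the spread between genes far exceeds that between libraries.

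Among the immune catalytic genes, PSMB9 and PSMB10 were lower in both knockdown libraries and PSMB8 overlapped, and 0 of the 3 passed the adjusted threshold. PSMB10 had 44.1 and 47.5 FPKM in knockdown libraries, against 50.05 and 52.2 FPKM in control libraries. Its level averaged 45.8 ± 2.39 FPKM in knockdown libraries and 51.15 ± 1.55 FPKM in control libraries (SD, n = 2 each; log2 change -0.16, SE 0.059; limma adjusted p = 0.27). PSMB9 had 60.3 and 61.15 FPKM in knockdown libraries, against 68.6 and 64.9 FPKM in control libraries. Its level averaged 60.7 ± 0.603 FPKM in knockdown libraries and 66.7 ± 2.62 FPKM in control libraries (SD, n = 2 each; log2 change -0.13, SE 0.052; limma adjusted p = 0.28). For both genes the groups did not overlap, and the 95% intervals of the log2 change, from -0.30 to -0.016 for PSMB10 and from -0.26 to -0.0071 for PSMB9, reach close to 0.

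PSMB8 had 84.7 and 86.6 FPKM in knockdown libraries, against 85.35 and 85.8 FPKM in control libraries (log2 change 0.00085, SE 0.048; limma adjusted p = 1.00). The 95% interval of its log2 change ran from -0.11 to 0.12, and a change within it could not be detected here. PSMB8 and PSMB9 are neighbours in the MHC class II region of chromosome 6, from 32840717 to 32844703 on the minus strand and from 32844136 to 32859585 on the plus strand (GRCh38). Their annotated spans overlap each other, and PSMB9 also overlaps TAP1, so reads in the shared stretches are uncertain without strand. PSMB10 lies apart, on the minus strand of chromosome 16 from 67934502 to 67937087.

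Each immune subunit replaces 1 constitutive subunit, so their ratio was taken within each library. PSMB10 over PSMB7 was 0.333 and 0.335 in knockdown libraries, against 0.343 and 0.376 in control libraries. PSMB9 over PSMB6 was 0.924 and 0.873 in knockdown libraries, against 0.9495 and 0.962 in control libraries. In both pairs the knockdown ratios lay under the control ratios, with log2 differences of -0.10 and -0.090. PSMB8 over PSMB5 was 1.73 and 1.55 in knockdown libraries, against 1.56 and 1.67 in control libraries, and the groups overlapped. The two-sided exact permutation p was 0.33 for PSMB10 over PSMB7 and for PSMB9 over PSMB6 and 1 for PSMB8 over PSMB5, and adjusted over the 3 pairs it was 0.50, 0.50 and 1. With 2 libraries against 2 the smallest p possible is 0.33, so these comparisons cannot reach significance. The difference in PSMB10 over PSMB7 was -0.17 when control replicate 0 was left out and -0.035 when control replicate 1 was, and it was -0.020 after removal of the GC trend. Its groups overlapped with quantile normalization (exact permutation p = 0.67) and with the GC trend removed (exact permutation p = 1). The difference in PSMB9 over PSMB6 was -0.048 without knockdown replicate 1.

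The 3 immune genes together made up 43.4% and 42.2% of the summed FPKM of the 6 catalytic genes in knockdown libraries, against 42.75% and 44.1% in control libraries. This share overlapped between groups. The order within pairs was the same in all 4 libraries: PSMB8 exceeded PSMB5, PSMB9 was slightly below PSMB6, and PSMB10 was well below PSMB7.

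**Figure D3:**
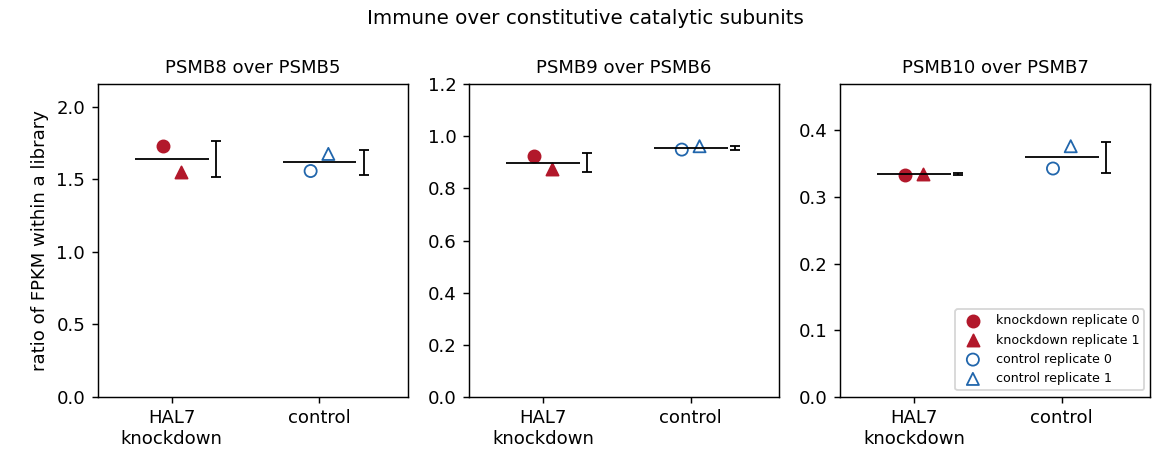
FPKM of each immune catalytic subunit divided by that of the constitutive subunit it replaces (y axis, starting at 0), by library; horizontal lines are means and error bars ± SD of 2 libraries per group. PSMB9 over PSMB6 and PSMB10 over PSMB7 are lower in both knockdown libraries, and PSMB8 over PSMB5 overlaps.

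In the 19S particle, 10 of 17 genes had positive log2 changes, with a median of 0.013 and 0 past the adjusted threshold. PSMD12, a scaffold subunit of the lid, was the least abundant proteasome gene and had the smallest p of the set. It stood at 13.4 and 13.4 FPKM in knockdown libraries, against 11.7 and 11.2 FPKM in control libraries. Its level averaged 13.4 ± 0.0324 FPKM in knockdown libraries and 11.4 ± 0.369 FPKM in control libraries (SD, n = 2 each; log2 change 0.21, SE 0.058; limma adjusted p = 0.21). The groups did not overlap. The knockdown SD, 0.242% of the mean, was the smallest of the set, and an SD from 2 libraries is a poor measure of spread. The gene lies on the minus strand of chromosome 17, from 67337916 to 67366627 on GRCh38.

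PSMC2, an ATPase, had 24.9 and 24.7 FPKM in knockdown libraries, against 23.2 and 21.97 FPKM in control libraries (log2 change 0.13, SE 0.055; limma adjusted p = 0.31). PSMC6, another ATPase, had 78.1 and 74.3 FPKM in knockdown libraries, against 68.3 and 73.9 FPKM in control libraries (log2 change 0.10, SE 0.060; limma adjusted p = 0.44). PSMD1, the large scaffold of the base, had 17.95 and 19.7 FPKM in knockdown libraries, against 17.4 and 17.4 FPKM in control libraries (log2 change 0.11, SE 0.063; limma adjusted p = 0.44). These 3 genes were higher in both knockdown libraries, by a narrow margin for PSMC6. PSMC2 shares part of its span with DNAJC2 on the opposite strand, which had 29.7 and 29.2 FPKM in knockdown libraries, against 26.8 and 27.8 FPKM in control libraries.

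PSMD8, a lid subunit, was on the lower side, with 65.35 and 69.6 FPKM in knockdown libraries, against 72.5 and 69.9 FPKM in control libraries (log2 change -0.077, SE 0.055; limma adjusted p = 0.52). PSMD4, a ubiquitin receptor, had 82.2 and 84.4 FPKM in knockdown libraries, against 89.9 and 84.7 FPKM in control libraries (log2 change -0.067, SE 0.054; limma adjusted p = 0.57). In both genes the groups did not overlap, but the nearest knockdown and control libraries almost met. PSMD14, the deubiquitinase of the lid, had 49.4 and 51.9 FPKM in knockdown libraries, against 49.3 and 47.1 FPKM in control libraries (log2 change 0.071, SE 0.055; limma adjusted p = 0.55). The other 10 genes of the 19S particle had log2 changes between -0.039 for PSMC4 and 0.099 for PSMC3. Of these, PSMC1 and PSMD6 were higher in both knockdown libraries, with log2 changes of 0.025 and 0.052. PSMC3, PSMC4, PSMC5, PSMD2, PSMD3, PSMD7, PSMD11 and PSMD13 overlapped.

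In PSMC3, an ATPase, the estimate depended on which control library was used. It stood at 77.8 and 79.2 FPKM in knockdown libraries, against 79.7 and 67.2 FPKM in control libraries. Its log2 change was 0.099 with all libraries, 0.22 without control replicate 0 and -0.022 without control replicate 1. The mean level of the 19S genes was 0.419 and 0.398 times that of the constitutive 20S genes in knockdown libraries, against 0.421 and 0.417 times in control libraries.

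Of the 4 activator genes 3 had positive log2 changes, with a median of 0.038 and 0 past the adjusted threshold. PSME1 and PSME2 encode the interferon-inducible PA28 ring. PSME1 had 202 and 204.5 FPKM in knockdown libraries, against 206 and 210.3 FPKM in control libraries (log2 change -0.033, SE 0.049; limma adjusted p = 0.77). PSME2 had 103 and 112.5 FPKM in knockdown libraries, against 105 and 110.4 FPKM in control libraries (log2 change 0.0023, SE 0.061; limma adjusted p = 0.99). PSME1 was slightly lower in both knockdown libraries, while PSME2 overlapped. The 95% intervals of their log2 changes ran from -0.15 to 0.084 for PSME1 and from -0.15 to 0.15 for PSME2.

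PSME3, which encodes the nuclear activator PA28 gamma, had 33.4 and 35.3 FPKM in knockdown libraries, against 31.6 and 32.15 FPKM in control libraries (log2 change 0.10, SE 0.054; limma adjusted p = 0.39). PSME4, which encodes the activator PA200, had 17.9 and 19.3 FPKM in knockdown libraries, against 17.3 and 17.98 FPKM in control libraries (log2 change 0.074, SE 0.062; limma adjusted p = 0.58). PSME3 was higher in both knockdown libraries, and PSME4 overlapped by a narrow margin.

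POMP, the chaperone that matures the 20S core and is then degraded by it, had the largest log2 change of the set. It stood at 59.8 and 68.6 FPKM in knockdown libraries, against 53.4 and 53.01 FPKM in control libraries. Its level averaged 64.2 ± 6.19 FPKM in knockdown libraries and 53.2 ± 0.293 FPKM in control libraries (SD, n = 2 each; log2 change 0.26, SE 0.072; limma adjusted p = 0.21). Both knockdown libraries were higher than both controls, and they differed more from each other than the controls did. The log2 change of POMP was 0.17 without knockdown replicate 1. The gene lies on the plus strand of chromosome 13, from 28659104 to 28678925 on GRCh38, and had the lowest transcript GC content of the set, 34.3%.

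Most proteasome genes differed in the same way between the knockdown libraries. In 34 of the 38 genes (89.5%) knockdown replicate 1 was above knockdown replicate 0, against 50.3% of all genes tested, with a median log2 difference of 0.069 against 0.00060. All 13 constitutive 20S genes and the 3 immune genes had this order. Over the whole set the control libraries showed no such lean, with 19 of 38 genes higher in control replicate 1. The classes differed in this. Control replicate 1 was higher in 5 of 7 alpha, 1 of 6 constitutive beta and 2 of 3 immune genes. In the 19S particle it was higher in 1 of 6 ATPase and 6 of 11 non-ATPase genes. All 4 activators were higher in it, and POMP was lower. The median log2 change of the constitutive 20S genes was 0.033 over the 4 libraries. It was 0.076 when knockdown replicate 0 was left out and -0.0025 when knockdown replicate 1 was. That of the 3 immune genes was -0.13 with all libraries, which is the value of PSMB9, while PSMB8 had 0.00085. The immune median stayed between -0.14 and -0.094 when any 1 library was left out. It was -0.078 with the GC trend described below removed.

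The log2 changes of proteasome genes ran with the GC content of their transcripts. Across the 38 genes Pearson's r was -0.76 and Spearman's rho -0.76, and across the 12499 genes tested with a GC value they were -0.31 and -0.43. These values describe genes measured in the same libraries, which are not independent replicates. The median GC content was 42.4% in the alpha genes, 48.6% in the constitutive beta genes, 53.3% in the immune genes, 47.5% in the 19S genes and 51.3% in the activators, and single genes ran from 34.3% in POMP to 62.05% in PSMB10. With the GC trend of all genes removed in each library, r over the 38 genes was -0.34. The log2 changes were then 0.10 for POMP, 0.17 for PSMA6, 0.15 for PSMD12, -0.078 for PSMB10 and -0.11 for PSMB9. Of the 38 genes 1, PSMD12, then had an unadjusted limma p under 0.05, against 1670 of the 12499 genes tested in that setting. The count is thus not a result about the proteasome.

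**Figure D4:**
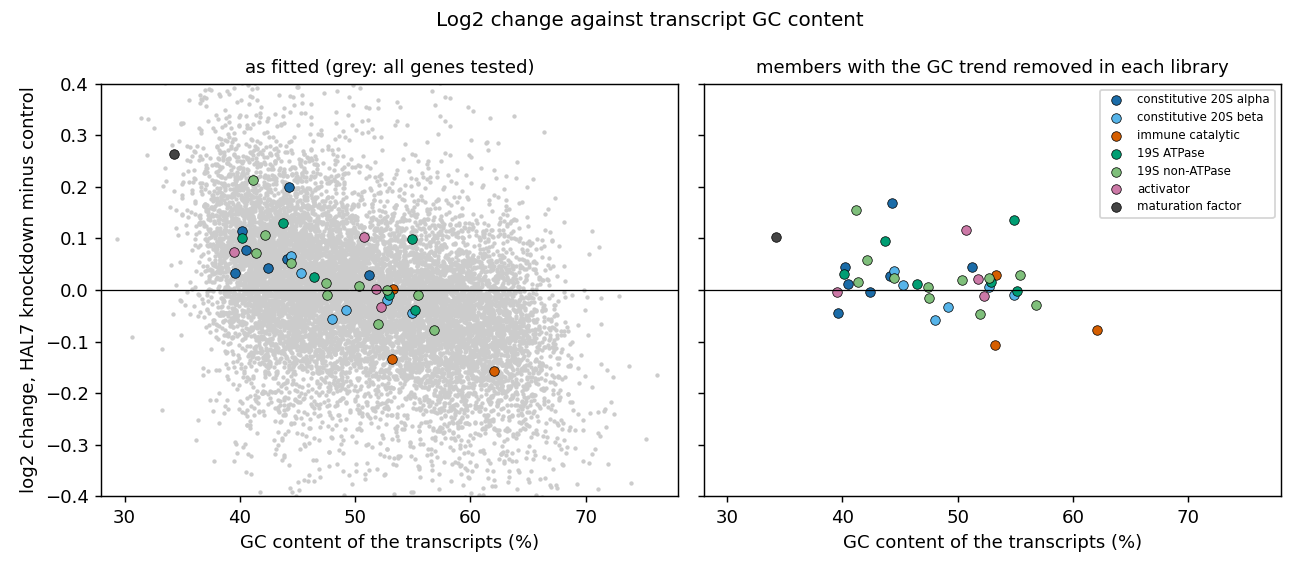
Log2 change (y axis, HAL7 knockdown minus control) against mean GC content of the annotated transcripts (x axis, %); the left panel shows the fit as reported with all tested genes that have a GC value in grey and the right panel the 38 proteasome genes after the GC trend was removed in each library. The y axis ends at 0.4 in both directions, which leaves out 187 grey genes; the points slope down with r of -0.76 on the left and -0.34 on the right.

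Genes that assemble, supply or regulate the proteasome were read beside the subunits, and 0 of them passed the adjusted threshold. Of 21 assembly and delivery genes, 11 had positive log2 changes (median 0.0057). At an unadjusted limma p under 0.05, 4 were higher in knockdown libraries (19.05%, against 7.25% of all genes tested) and 0 were lower (against 9.35%). In either direction the share was 19.05%, against 16.6% of all genes tested. PSMD10, an assembly chaperone of the 19S base, had 18.02 and 18.2 FPKM in knockdown libraries, against 16.3 and 15.7 FPKM in control libraries (log2 change 0.17, SE 0.055; limma adjusted p = 0.23). UCHL5, a deubiquitinase of the 19S particle, had 27.5 and 29.4 FPKM in knockdown libraries, against 25.4 and 24.55 FPKM in control libraries (log2 change 0.18, SE 0.058; limma adjusted p = 0.23). Both were higher in both knockdown libraries. The other two were PSMG1, a chaperone of the alpha ring, and USP14, a deubiquitinase bound to the 19S particle, with log2 changes of 0.20 and 0.15, named after their values were seen.

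PSMA8, which encodes the testis form of an alpha subunit, was near the limit for testing, with 1.34 and 1.28 FPKM in knockdown libraries, against 0.787 and 0.938 FPKM in control libraries (log2 change 0.31, SE 0.094; limma adjusted p = 0.22). Its control mean of 0.8625 FPKM was below the limit of 1 FPKM. The gene was thus tested only through its higher knockdown values, and its change is not a result. PSMB11, which encodes the thymic catalytic subunit, was listed at 0 in both knockdown libraries, against 0.00916 and 0.00431 FPKM in control libraries. Of 9 genes around NRF1, 6 were positive (median 0.0053) and 0 had an unadjusted limma p under 0.05. NFE2L1 itself, chosen after its values were seen, had 34.85 and 33.6 FPKM in knockdown libraries, against 35.7 and 35.6 FPKM in control libraries. MAFG, a partner factor, had 16.6 and 17.3 FPKM in knockdown libraries, against 17.4 and 19.04 FPKM in control libraries (log2 change -0.097, SE 0.064; limma adjusted p = 0.49). NFE2L3, a relative of NRF1, had 9.96 and 9.87 FPKM in knockdown libraries, against 9.42 and 9.15 FPKM in control libraries (log2 change 0.086, SE 0.059; limma adjusted p = 0.50). Both NFE2L1 and MAFG were lower and NFE2L3 higher in both knockdown libraries, by small margins.

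Of 6 ubiquitin supply genes 3 were positive (median -0.0012). At an unadjusted limma p under 0.05, 1 was lower (16.7%, against 9.35% of all genes lower and 16.6% in either direction). UBA6, a ubiquitin-activating enzyme, had 15.3 and 13.5 FPKM in knockdown libraries, against 16.8 and 17.5 FPKM in control libraries (log2 change -0.24, SE 0.073; limma adjusted p = 0.22), lower in both knockdown libraries. UBB, a polyubiquitin gene, had 589 and 718 FPKM in knockdown libraries, against 791.5 and 679.8 FPKM in control libraries (log2 change -0.17, SE 0.11; limma adjusted p = 0.48), and its groups overlapped.

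Of 11 interferon control genes 4 were positive (36.4%, against 46.8% of all genes tested), with a median of -0.075. At an unadjusted limma p under 0.05, 3 of them were lower (27.3%, against 9.35% of all genes) and 1 higher (9.09%, against 7.25%). IRF1, a factor that drives immune subunit genes, had 51.1 and 50.3 FPKM in knockdown libraries, against 56.45 and 57.6 FPKM in control libraries (log2 change -0.17, SE 0.049; limma adjusted p = 0.21). NLRC5, the class I transactivator, had 52.8 and 48.2 FPKM in knockdown libraries, against 57.9 and 57.8 FPKM in control libraries (log2 change -0.19, SE 0.060; limma adjusted p = 0.22). For both the groups did not overlap. The third lower gene was IRF9, an interferon response factor, with a log2 change of -0.21. The higher gene was IFNGR1, an interferon gamma receptor chain, with 27.4 and 27.1 FPKM in knockdown libraries, against 24.5 and 24.01 FPKM in control libraries (log2 change 0.16, SE 0.051; limma adjusted p = 0.23); IRF9 and IFNGR1 were named after their values were seen.

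Of 9 peptide supply genes 1 was positive (11.1%, against 46.8% of all genes tested), with a median of -0.069, and 3 had an unadjusted limma p under 0.05, all lower (33.3%, against 9.35% of all genes lower). HLA-C, whose reads can be split with near-identical class I genes, had 141 and 157 FPKM in knockdown libraries, against 175 and 169.5 FPKM in control libraries (log2 change -0.21, SE 0.065; limma adjusted p = 0.22). ERAP1, a peptide-trimming enzyme, had 30.3 and 26.8 FPKM in knockdown libraries, against 34.8 and 32.65 FPKM in control libraries (log2 change -0.24, SE 0.073; limma adjusted p = 0.22). TAP1, the peptide transporter gene next to PSMB9, had 32.2 and 31.3 FPKM in knockdown libraries, against 35.1 and 36.5 FPKM in control libraries. In these 3 genes the groups did not overlap. The median transcript GC content was 54.6% in the peptide supply list and 52.1% in the interferon control list, against 50.1% over all genes. It was 45.6% in the assembly and delivery list, 52.8% in the NRF1 list and 53.6% in the ubiquitin list. The part of GC content in the changes of these lists was not tested. The lists were chosen with earlier results of these libraries known, so their direction is no independent evidence.

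**Figure D5:**
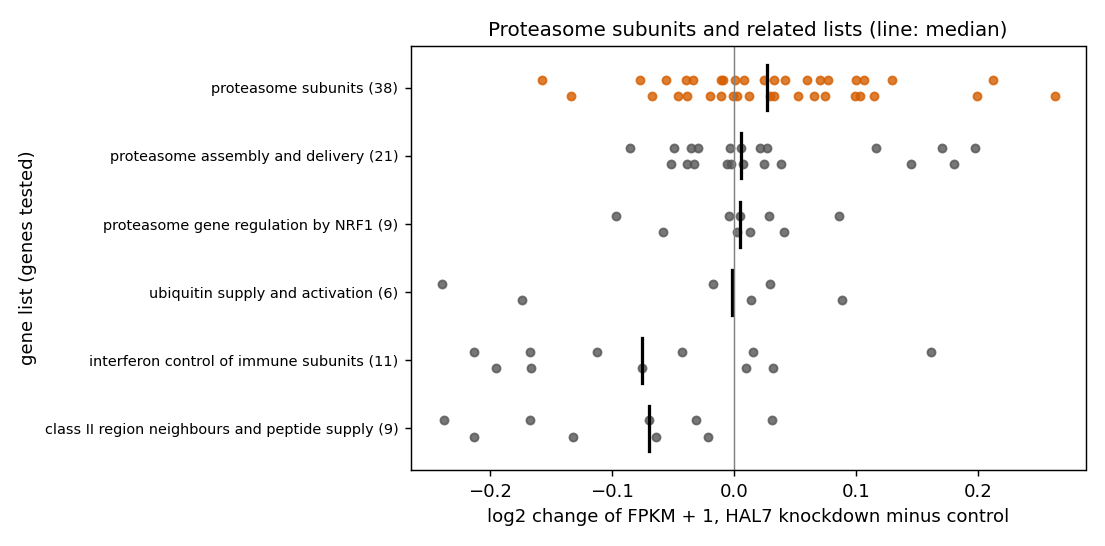
Log2 change (x axis, HAL7 knockdown minus control) of the tested genes in the proteasome set and in 5 related lists (y axis, number of genes in brackets); points are genes and vertical lines medians. The medians lie between -0.075 for interferon control and 0.027 for proteasome subunits, and 0 of the points passed the adjusted threshold.

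The levels of proteasome genes spanned a wide range. After PSMA6 at a mean of 317 FPKM over the 4 libraries came PSMB4 at 220.5 FPKM, PSME1 at 205.5 FPKM and PSMA1 at 153 FPKM. At the low end PSMC2 stood at 23.7 FPKM, PSME4 and PSMD1 at 18.1 FPKM each and PSMD12 at 12.4 FPKM. PSME4 and PSMD1 did not differ beyond their spread, while every value of PSMD12 lay below every value of both. By level, the median proteasome gene ranked above 91.05% of the genes tested and the lowest above 49.8%. Together the 38 genes made up 0.387% and 0.391% of the summed FPKM in knockdown libraries, against 0.375% and 0.3875% in control libraries. Of pseudogenes named for the set, 34 from 14 genes were listed, and 1 of them, PSMC1P1, reached a mean of 1 FPKM, at 3.52 FPKM. Another listed gene with a mean of at least 1 FPKM overlapped 14 of the proteasome genes, on the opposite strand in 12, and their values are uncertain to that extent.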

How the data were processed

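Polyadenylated RNA of 2 HAL7 knockdown and 2 control libraries of BLaER1 was analysed from 1 table with a value per gene and library. Per the submitters' processing notes, the authors used Bowtie2 2.2.5, TopHat2 2.0.14 and Cuffdiff 2.2.1 with hg19; options, annotation and scaling were not given in the sources used here. The deposited values were read as FPKM because the ID column carries the Cuffdiff name and the values are not whole; the table names no unit. They summed to 812554 and 853609 FPKM in knockdown libraries and to 846038 and 813859 FPKM in control libraries.

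Symbols came from Ensembl IDs (12499 of 12935 tested genes named), positions and GC content from GENCODE 29 on GRCh38, not the authors' build, and promoters from RefSeq (GRCh38.p14). Depth came from 1214 single-transcript genes of at least 2500 nt, where 80.5% to 85.2% of low values of FPKM times length lay within 0.15 of a whole step (30% by chance); whole reads were not rebuilt for other genes. The filter kept genes that averaged at least 1 FPKM, plus HAL7. They were fitted with limma 3.58.1 in R 4.3.3 on log2(FPKM + 1), with a variance trend, two-sided; this scale understates changes of low genes. The fit was tested on simulated data. Catalytic ratios were compared by an exact permutation test. The rule for naming genes gave the members by class, the 5 of smallest p per class in full, and the 2 of smallest p in each related list; PSMA3-AS1, DNAJC2, TAP1, PSMG1, USP14, NFE2L1, IRF9, IFNGR1 and PSMC1P1 were chosen after their values were seen. The members, lists and tests were chosen with earlier results of these data known. Alternatives were a pseudocount of 0.1 or 5, a mean of 5 FPKM or no filter, median centring, quantile normalization, a fit without the variance trend, a replicate block, removal of the GC trend (lowess, span 0.3) and leaving out each library.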

Additional observations from a re-analysis of the deposited data

How the results depend on the processing

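In each of the 13 alternatives 0 of the 38 genes were called by limma, and the lowest adjusted p was 0.099, for POMP without knockdown replicate 0. Where an arm had 1 library left, it was taken to have the spread seen in the arm with 2. The count over all genes, 4 as reported, was 2 with a pseudocount of 0.1, 0 without a filter (3002 at an unadjusted p under 0.05), 1 with a mean of at least 5 FPKM, and 11 to 22 when 1 library was left out. The labels link same-numbered libraries only by the number, and whether they were processed together is not stated. Their deviations correlated at 0.12 over 12935 genes and at 0.19 without mitochondrially encoded genes, with 2 pairs. With the replicate block 19 genes were called over all genes, and 1 of the 38 was lower at an unadjusted limma p under 0.05, against 2 without it. Over all genes 2052 were at that p in either direction with the block, against 2148 without it.

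Genes of the set at an unadjusted p under 0.05 in limma, 3 higher and 2 lower as reported, were 1 higher and 0 lower with the GC trend removed. Over all genes 2148 of 12935 were at that p as reported and 1670 of 12499 with the GC trend removed. The lower count of the set was 1 with median centring and 0 without the variance trend, where 2123 and 2056 of all genes were at that p in either direction. When 1 library was left out, 1 (control replicate 1) to 6 (knockdown replicate 0) were higher, and 0 to 1 were lower, with 1 without knockdown replicate 1 and 0 without any of the other 3. The median log2 change was -0.0025 to 0.076 for the constitutive 20S genes and -0.010 to 0.095 for the activators when 1 library was left out, and -0.078 for the immune genes with the GC trend removed. The log2 difference in PSMB8 over PSMB5, 0.020 as reported, was -0.056 to 0.096 when 1 library was left out. Those in PSMB9 over PSMB6 (-0.13 to -0.048 when 1 library was left out) and PSMB10 over PSMB7 (-0.17 to -0.035) stayed negative in the alternatives that alter values or libraries, although the groups of PSMB10 over PSMB7 overlapped with quantile normalization and with the GC trend removed, and the change of HAL7 stayed negative in all 13. Filters, the variance trend and the block leave a ratio within a library as it is and were not run for the ratios.

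The log2 change kept its sign in every alternative in 22 of the 38 genes, and 16 changed sign in at least 1, each under 0.10 in size as reported. With the GC trend removed the sign turned in PSMA2 (-0.045), PSMA5 (-0.0037), PSMB5 (0.0054), PSMC5 (0.016), PSMD2 (0.024), PSMD3 (0.029), PSME4 (-0.0049), with quantile normalization in PSMB8 (-0.0047), PSMD2 (9.2e-05), PSMD11 (0.0022), PSMD13 (-0.0035), and with median centring in PSMD2 (0.0058). Log2 changes that turned when 1 library was left out ranged over -0.0025 to 0.069 for PSMA2, -0.017 to 0.10 for PSMA5, -0.067 to 0.13 for PSMA7, -0.079 to 0.0031 for PSMB4, -0.11 to 0.073 for PSMB5, -0.096 to 0.0050 for PSMB6, -0.015 to 0.017 for PSMB8, -0.022 to 0.22 for PSMC3, -0.044 to 0.026 for PSMC5, -0.022 to 0.021 for PSMD2, -0.074 to 0.053 for PSMD3, -0.035 to 0.060 for PSMD7, -0.099 to 0.078 for PSMD11, -0.014 to 0.031 for PSMD13, -0.059 to 0.063 for PSME2. Without a sign change, they ranged from 0.10 to 0.29 for PSMA6, 0.17 to 0.36 for POMP, 0.057 to 0.17 for PSMA3, 0.044 to 0.16 for PSMC6, 0.044 to 0.17 for PSMD1 and 0.063 to 0.14 for PSME3. The cause of these shifts was not tested. With 2 libraries per group, standard errors of 0.048 to 0.083 for the log2 changes of the set limit what can be seen.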
